A study of Mus musculus with 12 samples.

Results

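The genes described here are 7 markers of lymphatic endothelial identity, Prox1, Lyve1, Pdpn, Flt4, Reln, Mmrn1 and Foxc2, chosen by symbol from the 27825 genes of a bulk RNA-seq count table of sorted mouse endothelial cells. All 7 had a mean of at least 10 normalized counts over the 12 libraries and so entered the fits, which covered 22238 genes. Each of the 4 groups had 3 libraries (replicates A, B and C): mesentery on normal chow, mesentery on high fat diet, epididymal fat on normal chow and epididymal fat on high fat diet. Every group, the chow groups included, came from male ROSA26-eYFP+/+ Cdh5-CreERT2+ mice given a tamoxifen diet for 2 weeks from 6 weeks of age, so that Cre driven by the endothelial Cdh5 promoter switched on the yellow fluorescent reporter used for sorting. From 8 weeks of age the mice received chow with 5.8% fat or a diet with 60% fat for 12 to 13 weeks. Tissue from 6 mice was pooled into each library. Libraries also carry a number, 50 and 51 or 87 on chow and 52 and 53 or 88 on high fat diet, which the mesentery and epididymal libraries of the same diet and replicate letter share and whose meaning the labels do not give. The sample descriptions speak of 2 independent repeats of the experiment whereas 3 libraries per group are deposited, so p-values measure the spread between these pools, part of which may be technical. In such bulk libraries fewer lymphatic cells and less RNA per lymphatic cell cannot be told apart.

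Lymphatic vessels drain fluid and immune cells from tissue, carry absorbed fat from the gut through the mesentery, and are lined by endothelial cells that differ from those of blood vessels. Prox1 is the transcription factor that sets and keeps lymphatic fate, and Flt4 encodes VEGFR-3, the receptor through which VEGF-C and VEGF-D drive lymphatic growth. Lyve1 encodes a hyaluronan receptor of lymphatic capillaries that certain macrophages also carry, Pdpn the membrane glycoprotein podoplanin, Reln the secreted protein reelin, Mmrn1 the secreted protein multimerin 1, and Foxc2 a transcription factor of collecting vessels and valves. Cdh5 is itself made by blood and lymphatic endothelium, so the sort could take up both.

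RefSeq promoter windows (250 bases before to 50 after a start site, GRCm38.p6) were found for 5 of the 7 genes, 6 windows in all. Those of Mmrn1, Pdpn and Flt4 are shown because their tissue differences define the pattern described further on: Mmrn1 and Pdpn were higher in epididymal libraries, and Flt4 was lower. Capitals mark matches to the letters searched on both strands.

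Mmrn1 (chr6:60944067-60944366, plus strand): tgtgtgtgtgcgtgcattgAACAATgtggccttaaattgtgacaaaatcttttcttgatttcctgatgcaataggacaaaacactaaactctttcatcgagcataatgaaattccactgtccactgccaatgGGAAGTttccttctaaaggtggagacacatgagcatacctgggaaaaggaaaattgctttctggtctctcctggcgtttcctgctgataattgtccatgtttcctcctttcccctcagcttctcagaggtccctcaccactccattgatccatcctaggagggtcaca

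Pdpn (chr4:143299515-143299814, minus strand): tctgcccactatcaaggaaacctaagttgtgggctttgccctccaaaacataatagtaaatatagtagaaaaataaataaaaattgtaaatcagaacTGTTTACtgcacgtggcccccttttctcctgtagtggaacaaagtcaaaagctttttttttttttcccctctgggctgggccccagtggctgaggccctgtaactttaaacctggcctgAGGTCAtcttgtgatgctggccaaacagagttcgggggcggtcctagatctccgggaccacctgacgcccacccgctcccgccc

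Flt4 (chr11:49609429-49609728, plus strand): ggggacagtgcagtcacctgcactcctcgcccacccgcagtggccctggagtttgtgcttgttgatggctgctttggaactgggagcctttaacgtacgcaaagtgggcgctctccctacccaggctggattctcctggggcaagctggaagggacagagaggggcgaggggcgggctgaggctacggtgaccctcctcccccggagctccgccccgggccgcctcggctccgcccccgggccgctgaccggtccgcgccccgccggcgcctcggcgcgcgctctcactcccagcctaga

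Short words known as core binding letters of factor families active in lymphatic endothelium were searched for. For SOX factors the word was AACAAT, present in 10.7% of all 32851 windows and found in the Mmrn1 window. For ETS factors it was GGAAGT, present in 23.8% of windows and also found in the Mmrn1 window, while the longer form ACCGGAAGT, which contains it and occurs in 1.10% of windows, was in no window of these genes. For FOX factors the word GTAAACA, present in 3.65% of windows, was found in the Pdpn window on the opposite strand. For nuclear receptors the word AGGTCA, present in 16.3% of windows, was found in the Pdpn window as well. The NFAT word TGGAAA, in 21.4% of windows, and a word bound by zinc finger factors such as Gata2, AGATAA, in 11.2%, were in no window of these genes. The Flt4 window, both Prox1 windows and the Reln window held none of the words. G and C made up 44.3% of the Mmrn1 window, 48.7% of the Pdpn window and 70.3% of the Flt4 window, against a median of 52.7% over all windows.

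Library totals ran from 8348897 to 25397963 reads, and 3 reads, the floor used here, corresponded to 2.12 to 4.22 normalized counts. Cdh5 ranged from 2172 to 4822 and Pecam1 from 3730 to 12974 normalized counts over the 12 libraries, so both endothelial markers were present throughout. Genes of other cells were also present: the summed exocrine pancreas list of 6 genes, which includes the digestive genes Clps and Cpa1, reached 20803 to 146747 in the 6 mesentery libraries and 183 to 552 in the epididymal ones. Replicate C of chow mesentery stood apart from replicates A and B in several ways. It had the lowest read total of the 12 libraries, and a summed lymph node stroma and high endothelial venule list of 4204 against 215 and 220. Its exocrine pancreas sum was 20803 against 146747 and 119772, and its macrophage sum 1504 against 290 and 207. In mesentery on high fat diet the lymph node stroma and high endothelial venule list was also uneven, at 1663 in replicate A against 376 and 475 in replicates B and C. Values without replicate C of chow mesentery are given for several of the 7 genes beside the comparisons that use chow mesentery.

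**Figure D1:**
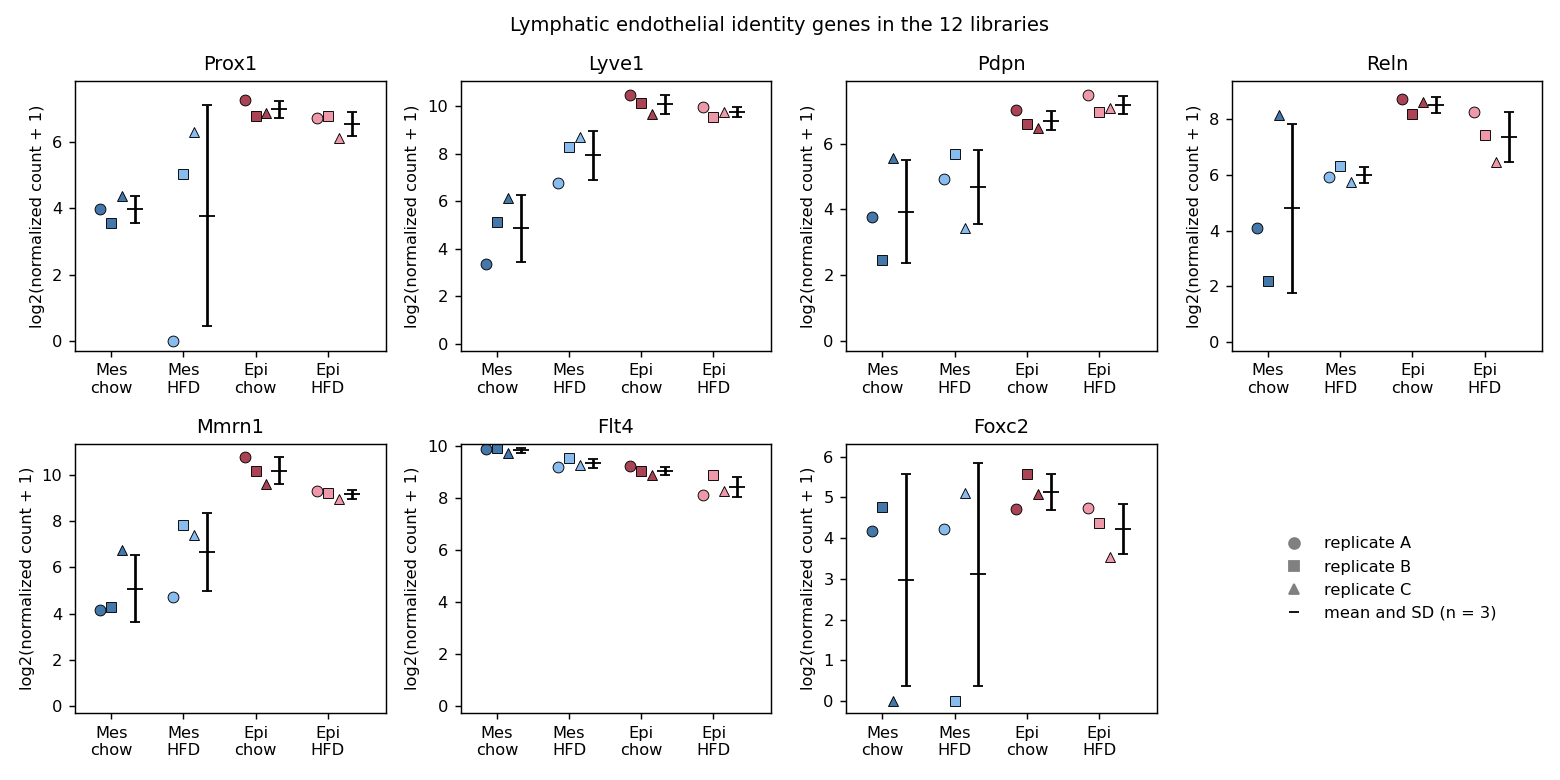
Normalized counts of the 7 genes in each library, as log2(normalized count + 1), in mesentery (Mes) and epididymal fat (Epi) on chow or high fat diet (HFD); symbols are single libraries and black bars the mean and SD of 3. Lyve1, Mmrn1 and Pdpn of all 6 epididymal libraries lie above the mesentery libraries, whereas Flt4 is highest in chow mesentery, and Prox1 is at 0 in replicate A of mesentery on high fat diet.

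Lyve1 and Mmrn1 reached the highest normalized counts of the 7 genes in single libraries. Lyve1 was 9.11, 34.0 and 69.0 normalized counts in chow mesentery and 1425, 1116 and 818 in chow epididymal fat (replicates A, B and C). After the high fat diet it was 108, 315 and 422 in mesentery and 999, 758 and 871 in epididymal fat. Both epididymal groups lay above both mesentery groups and overlapped each other, while the mesentery groups did not overlap. Mmrn1 was 17.1, 18.8 and 106 in chow mesentery and 1734, 1131 and 779 in chow epididymal fat. After the high fat diet it was 25.3, 227 and 169 in mesentery and 624, 595 and 488 in epididymal fat. The order of the group means was therefore chow epididymal fat, high fat epididymal fat, high fat mesentery and chow mesentery for both genes, and the mesentery groups of Mmrn1 overlapped.

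Prox1 was low throughout. It was 14.8, 10.8 and 19.7 normalized counts in chow mesentery, and 0, 31.9 and 79.0 in mesentery on high fat diet. It was 154, 111 and 118 in chow epididymal fat and 105, 111 and 68.7 on high fat diet. The zero of replicate A, where no read was counted, gave mesentery on high fat diet a mean of 37.0 ± 39.8 (SD, n = 3), a spread as large as the mean. The highest mesentery library overlapped the lowest epididymal one on high fat diet, and on chow the tissues were apart.

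Pdpn was 12.5, 4.48 and 46.5 normalized counts in chow mesentery, 29.0, 49.9 and 9.88 in mesentery on high fat diet, 128, 96.4 and 87.8 in chow epididymal fat and 179, 122 and 134 in epididymal fat on high fat diet. Reln was 15.9, 3.58 and 279 in chow mesentery, 59.9, 79.0 and 52.4 in mesentery on high fat diet, 419, 286 and 392 in chow epididymal fat and 300, 169 and 86.3 in epididymal fat on high fat diet. For both, every epididymal library exceeded every mesentery library on the same diet, and replicate C supplied most of the Reln counts of chow mesentery. Foxc2, a marker of the valve-bearing vessels, stayed at or below 46.9 normalized counts in every library and at 0 in replicate C of chow mesentery and replicate B of mesentery on high fat diet. Its group means were 14.4 ± 13.2, 17.1 ± 16.8, 34.9 ± 11.1 and 18.8 ± 7.67 (SD, n = 3) in chow mesentery, high fat mesentery, chow epididymal fat and high fat epididymal fat, and all 4 groups overlapped.

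Flt4 followed another order. It was 941, 953 and 848 normalized counts in chow mesentery, 581, 730 and 621 in mesentery on high fat diet, 590, 522 and 469 in chow epididymal fat and 277, 467 and 305 in epididymal fat on high fat diet. Chow mesentery was above all other libraries, high fat mesentery overlapped chow epididymal fat by 1 library, and high fat epididymal fat was lowest. Per kilobase of exon (GENCODE M21), Flt4 was the most abundant of the 7 genes in chow mesentery, at 111 ± 7.01 normalized counts per kb (SD, n = 3), followed by Lyve1 at 12.8 ± 10.3. In chow epididymal fat Lyve1 led at 384 ± 104, followed by Mmrn1 at 207 ± 82.3, Flt4 at 64.0 ± 7.36 and Pdpn, whose libraries ran from 48.3 to 70.3, with Reln, Prox1 and Foxc2 between 12.8 and 15.4 per kb.

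On chow, 5 of the 7 genes differed between the tissues at an adjusted p under 0.05 in limma, 4 of them higher and 1 lower in epididymal than in mesentery libraries, where 12.8% of all genes tested did (7.32% higher and 5.47% lower). The median change of the 7 was 3.02 on the log2 scale, against -0.08 for all genes. Lyve1 was 37.5-fold higher (log2 change 5.23, SE 0.60, limma adjusted p = 0.000102) and Mmrn1 was 34.2-fold higher (log2 change 5.10, SE 0.76, limma adjusted p = 0.000734). Both passed under all 24 alternative settings. Reln was 13.0-fold higher (SE of the log2 change 1.05, limma adjusted p = 0.0341) and Pdpn higher by 2.77 in log2 terms (SE 0.74, limma adjusted p = 0.0260), with calls kept in 16 and 18 of 24 settings. The Reln call was lost in edgeR (change 1.98, adjusted p = 0.287) and in DESeq2 (1.88, adjusted p = 0.213), and its change was 5.36 without replicate C of chow mesentery (limma adjusted p = 7.61e-05). The Prox1 difference was 3.02, with an interval of 0.51 to 5.54, and did not pass (limma adjusted p = 0.116), although it passed in 4 of 24 settings, DESeq2 among them (adjusted p = 0.0137). Foxc2 also missed the threshold (2.14, limma adjusted p = 0.396). Over single libraries left out the log2 change went from 4.46 to 5.86 for Lyve1, 4.65 to 5.93 for Mmrn1, 2.03 to 3.59 for Pdpn, 2.39 to 5.36 for Reln and 0.65 to 3.03 for Foxc2. Replicate C of chow mesentery was the library left out at the upper end for Lyve1, Mmrn1, Pdpn and Reln and at the lower end for Foxc2. The lower ends were reached without chow mesentery replicate A for Lyve1 and Mmrn1 and without replicate B for Pdpn and Reln, the latter pair no longer called (limma adjusted p = 0.0925 and 0.114). All intervals of log2 changes here are 95% intervals, on the log2(normalized count + 1) scale. The 3 libraries of each tissue did not overlap for Prox1, Lyve1, Pdpn, Reln and Mmrn1, which lay higher in epididymal fat, as 16.0% of all genes did, and for Flt4, which lay lower, as 12.7% did. Without replicate C of chow mesentery 5 of the 7 were called, and the count went from 2 to 6 when other single libraries were left out: 2 without chow mesentery replicate A or B or chow epididymal replicate B, and 6 without replicate A of mesentery on high fat diet.

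Markers of several other cell types moved with this tissue difference. On chow, macrophage list sums were 207 to 1504 in mesentery and 1785 to 12734 in epididymal fat, and 6 of 8 macrophage genes were higher at the adjusted threshold. The fibroblast list, whose cells can also make Pdpn, summed to 6283 to 9944 against 17507 to 55849, with 5 of 7 genes higher. The mesothelial list summed to 197 to 276 against 1238 to 1905, with Wt1 at 0 in all chow mesentery libraries and 5 of 6 tested genes higher. The platelet and megakaryocyte list, whose cells store Mmrn1 protein, summed to 115 to 200 against 815 to 3547, with Gp9 at 0 in all chow mesentery libraries. The adipocyte list summed to 3899 to 6405 in mesentery and 63085 to 85648 in epididymal fat, with 6 of 6 genes higher and a median change of 3.57. The smooth muscle and pericyte list summed to 1249 to 1528 against 11978 to 22190, with 5 of 6 genes higher and a median change of 3.68. The part of these cells in the differences of the 7 genes was not tested.

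**Figure D2:**
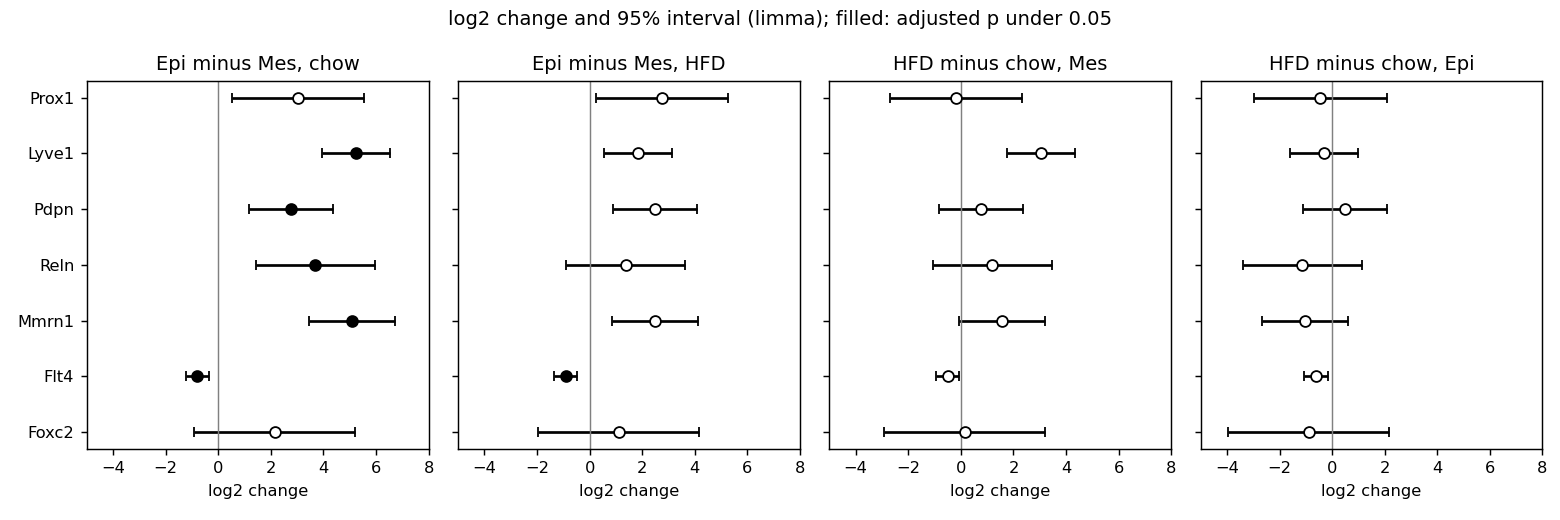
log2 changes of the 7 genes in 4 comparisons, with 95% intervals from limma; filled points have an adjusted p under 0.05. On chow, Lyve1, Mmrn1, Reln and Pdpn are called higher and Flt4 lower in epididymal fat (Epi) than in mesentery (Mes); on high fat diet (HFD) Flt4 alone of the 7 is called, and neither diet comparison has a filled point.

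Flt4 was the member that was lower in epididymal fat. The change was -0.80 on the log2 scale on chow (SE 0.21, limma adjusted p = 0.0231), a level 1.74-fold lower, and -0.91 on high fat diet (SE 0.21, limma adjusted p = 0.0168). Each call was kept in 18 of 24 settings, and both were lost in edgeR (adjusted p = 0.0854 and 0.0823) and in limma without a mean-variance trend. On chow it was also lost without mesentery replicate A or B or epididymal replicate B or C, with changes of -0.88 to -0.72 over all single libraries left out. Pecam1, made by all endothelium, was lower in the same comparisons, by -0.90 (limma adjusted p = 0.0133) and -1.02 (limma adjusted p = 0.0102). Cdh5 did not share this: it was 914 ± 261 normalized counts per kb in chow mesentery and 905 ± 152 in chow epididymal fat. On high fat diet Cdh5 was 674 ± 32.9 and 742 ± 314 per kb (SD, n = 3). Of the 8 pan-endothelial genes 4 had positive and 4 negative changes on chow, and 2 and 6 on high fat diet. Divided by Pecam1 within each library, Flt4 was 74.1 ± 0.60 per 1000 Pecam1 counts in chow mesentery and 80.3 ± 13.2 in chow epididymal fat, and 64.2 ± 5.86 and 68.9 ± 6.99 on high fat diet (SD, n = 3). These ratios overlapped between tissues on both diets (2-sided exact permutation p = 0.7 and 0.4 with n = 3 per group, where the smallest possible p is 0.1). With the columns rescaled to the mean log2 level of the pan-endothelial list, the Flt4 call on high fat diet was lost (change -0.37, limma adjusted p = 0.236). The chow call was kept (-0.72, limma adjusted p = 0.0282). Relative to Prox1, Flt4 reached 43 to 88.7 in chow mesentery and 3.84 to 4.70 in chow epididymal fat.

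**Figure D3:**
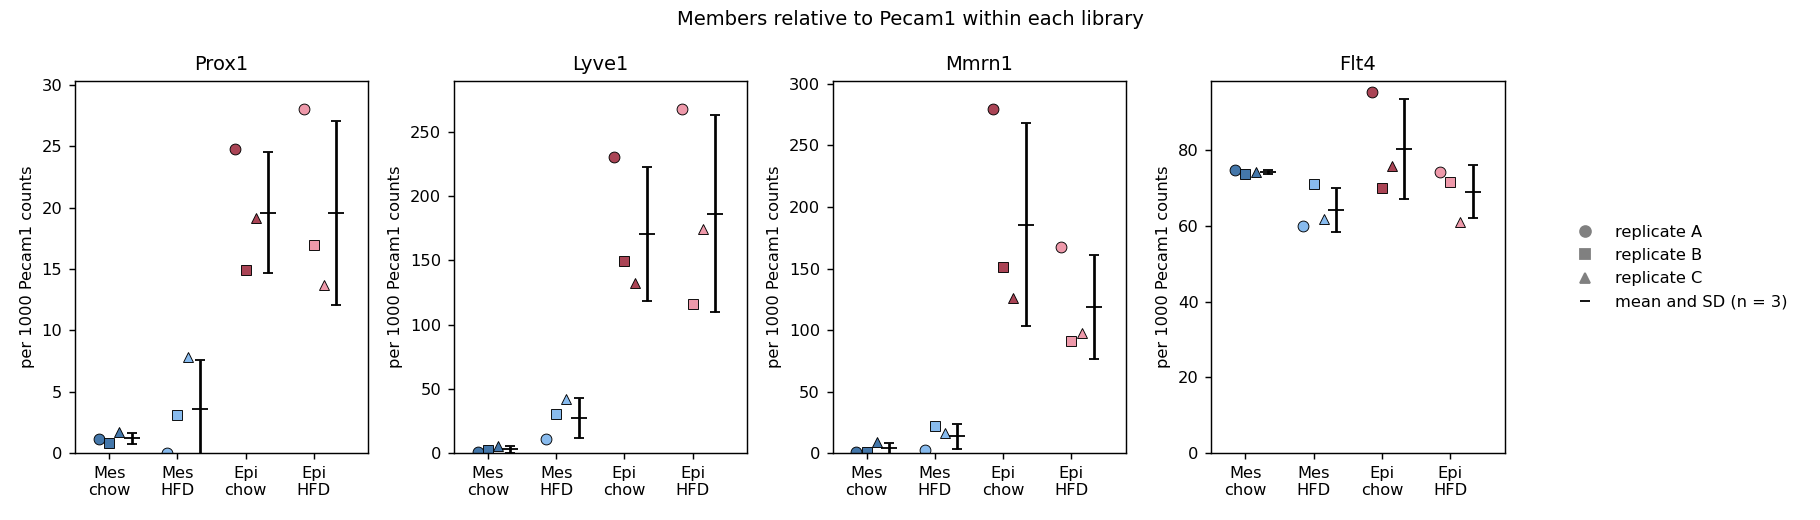
Normalized counts of Prox1, Lyve1, Mmrn1 and Flt4 per 1000 Pecam1 counts in each library of mesentery (Mes) and epididymal fat (Epi), on linear axes that start at 0; symbols are libraries, black bars the mean and SD of 3, with the Prox1 bar of mesentery on high fat diet (HFD) cut at 0. Flt4 lies between 60 and 95.1 in all 12 libraries, while Lyve1 goes from 0.723 in a chow mesentery library to 268 in an epididymal one.

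On high fat diet, Flt4 was the 1 of 7 genes called between the tissues, where 8.34% of all genes were (4.91% higher and 3.43% lower in epididymal fat). The log2 difference was 2.76 for Prox1 (interval 0.25 to 5.28), 2.50 for Pdpn (0.90 to 4.10), 2.49 for Mmrn1 (0.86 to 4.13), 1.84 for Lyve1 (0.54 to 3.13), 1.37 for Reln (-0.89 to 3.63) and 1.11 for Foxc2 (-1.96 to 4.17). Their limma adjusted p-values were 0.186, 0.0554, 0.0615, 0.0818, 0.554 and 0.782. The tissues did not overlap for Lyve1, Pdpn, Reln and Mmrn1, which were higher in epididymal fat, against 15.1% of all genes, or for Flt4, which was lower, against 11.2%. The median change of the 7 was 1.84, and 0.06 over all genes. This count was sensitive to the method: edgeR called 0 of the 7 and DESeq2 called 4, and 4 were called by limma without replicate C of chow mesentery, a library outside the comparison that enters the shared estimate of spread. Calls over all genes shifted too: edgeR called 1021 of 22238, DESeq2 2931 of 16078, and limma without that library 2508 of 22238. None of the 7 was called without replicate B of mesentery on high fat diet or replicate A or C of epididymal fat on high fat diet. The macrophage sums were 827 to 4637 in mesentery and 28267 to 73515 in epididymal fat on this diet, and 8 of 8 macrophage genes were called higher. The fibroblast list summed to 4273 to 9136 against 37636 to 53955, with 6 of 7 genes called higher and a median change of 3.40. Of the smooth muscle and pericyte list 3 of 6 genes were called higher, and of the mesothelial list 2 of 6. The part of these cells was not tested.

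In mesentery, high fat diet gave 0 of 7 calls in limma, where 0.0135% of all genes were called (0.00899% higher and 0.00450% lower). These were 3 genes, and limma called 37 over all genes without replicate C of chow mesentery (35 higher and 2 lower) and 20 in the libraries numbered 50 to 53. In limma 1367 of all 22238 genes had an unadjusted p under 0.05. At the adjusted threshold edgeR called 1 of the 22238, and DESeq2 called 150 of 19857. Of the 7 genes 2 had an unadjusted p under 0.05, edgeR called 0 and DESeq2 called 1. That gene was Lyve1, whose level was 8.36-fold higher on high fat diet (log2 change 3.06, interval 1.77 to 4.36, limma adjusted p = 0.214, DESeq2 adjusted p = 0.000462, edgeR adjusted p = 0.419). It was higher in all 3 high fat libraries than in any chow library, a separation upwards that 4.47% of all genes showed. Without replicate C of chow mesentery its change was 3.70 (limma adjusted p = 0.0269), and without replicate A of that group 2.30 (limma adjusted p = 0.398). Lyve1 passed in 3 of 24 settings: DESeq2, without replicate C of chow mesentery, and the libraries numbered 50 to 53. Within the libraries numbered 50 to 53 the change of Lyve1 was 4.28 (limma adjusted p = 0.0187) and that of Mmrn1 was 3.38 (limma adjusted p = 0.00614). That subset leaves out replicate C of chow mesentery and replicate A of high fat mesentery. For both genes these were the highest chow and the lowest high fat mesentery library, so larger changes follow from the subset. Of 24 settings Mmrn1 passed in 1, this subset. Over all libraries the Mmrn1 difference was 1.58 (interval -0.05 to 3.21, limma adjusted p = 0.831), and without replicate C of chow mesentery it was 2.41 (limma adjusted p = 0.238).

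Per 1000 Pecam1 counts, Lyve1 in mesentery was 0.723 to 6.04 on chow and 11.1 to 41.9 on high fat diet (n = 3 each; 2-sided exact permutation p = 0.1, the smallest possible). The macrophage list, 8 of whose 8 genes had positive changes and 0 passed, summed to 207 to 1504 on chow and 827 to 4637 on high fat diet. In replicates A, B and C of the high fat group the macrophage sums were 4637, 827 and 3848, and Lyve1 was at 108, 315 and 422. The lymphocyte list summed to 5890 in replicate C of the high fat group and to 148 and 154 in replicates B and A, with Cd8a at 0 in all chow mesentery libraries. The part of macrophages and lymphocytes in the Lyve1 difference was not tested.

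The Flt4 difference in mesentery was negative, -0.51 on the log2 scale (interval -0.96 to -0.06, limma adjusted p = 0.727), with all high fat libraries below the chow ones, as in 5.14% of all genes. Reln, Pdpn, Prox1 and Foxc2 differed by 1.19, 0.75, -0.18 and 0.14, with intervals that included 0. The sign of Prox1 was not stable and turned in 6 of 24 settings. The change was 1.71 without replicate A of mesentery on high fat diet, the library at 0, and 0.019 without replicate C of chow mesentery. The sign of Foxc2 turned to -1.35 without replicate C of chow mesentery, the Pdpn difference was 1.57 without it (limma adjusted p = 0.467), and the Reln difference was 2.86 without that library and -0.11 without replicate B of the same group.

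In epididymal fat, high fat diet also gave 0 of 7 calls in limma, where 0.549% of all genes were called (0.418% higher and 0.130% lower). There was 1 of 7 at an unadjusted p under 0.05, and edgeR and DESeq2 both called 0. Among all 22238 genes 1543 had an unadjusted p under 0.05, edgeR called 29, and DESeq2 called 563 of 13118. Of the 7 genes 6 had a negative change, with a median of -0.62 against 0.10 for all genes, and the pan-endothelial list of 8 genes had a median of -0.51. Reln was at -1.13 (interval -3.40 to 1.13), Mmrn1 at -1.02 (-2.66 to 0.61), Foxc2 at -0.90 (-3.96 to 2.16), Flt4 at -0.62 (-1.07 to -0.17), Prox1 at -0.44 (-2.96 to 2.07), Lyve1 at -0.33 (-1.62 to 0.97) and Pdpn at 0.48 (-1.12 to 2.07). The lowest limma adjusted p was 0.327, for Flt4. All high fat libraries lay below the chow libraries for Prox1, Flt4 and Mmrn1, as they did for 6.57% of all genes, and none of the 7 separated upwards, as 6.93% of all genes did. With the columns rescaled to the pan-endothelial list, Flt4 was at -0.13, Mmrn1 at -0.53, Prox1 at 0.049 and Lyve1 at 0.17. Mmrn1 per Lyve1 count was 0.953 to 1.22 on chow and 0.561 to 0.784 on high fat diet (2-sided exact permutation p = 0.1 with n = 3 per group, 0.25 after adjustment over 20 ratio tests). The macrophage list summed to 1785 to 12734 on chow and 28267 to 73515 on high fat diet, with positive changes in 8 of 8 genes, of which 5 had an unadjusted p under 0.05 and 0 passed (lowest limma adjusted p = 0.0620). Lyve1, which some macrophages carry, was at 818 to 1425 and 758 to 999 in the same libraries. The adipocyte list summed to 63085 to 85648 on chow and 3938 to 13910 on high fat diet, with 3 of 6 genes called lower and a median change of -2.21. The fibroblast list summed to 17507 to 55849 and 37636 to 53955, with 1 of 7 genes called higher and a median change of 1.11. The part of these cells in the diet differences of the 7 genes was not tested.

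The diet effect in epididymal fat minus that in mesentery was tested as an interaction. None of the 7 genes passed in limma, where 0.00450% of all genes did, 2 had an unadjusted p under 0.05, edgeR called 0 and DESeq2 called 1, Lyve1. Among all 22238 genes 1047 had an unadjusted p under 0.05, edgeR called 1, and DESeq2 called 130 of 16078. The differences of the 7 genes were all negative, with a median of -1.04 against 0.11 over all genes. For 4 of the 7, Prox1, Pdpn, Flt4 and Foxc2, the sign changed under some alternative. Lyve1 had -3.39 (interval -5.22 to -1.56, limma adjusted p = 0.411, DESeq2 adjusted p = 0.0110), Mmrn1 -2.60 (-4.91 to -0.29, limma adjusted p = 0.965) and Reln -2.33 (-5.53 to 0.87, limma adjusted p = 1.00). In the libraries numbered 50 to 53 Mmrn1 passed, at -4.76 (limma adjusted p = 0.00641), the 1 of 24 settings in which it did. That subset leaves out the highest chow and the lowest high fat mesentery library of Mmrn1. It also leaves out its lowest chow and its highest high fat epididymal library, so a larger difference follows from the subset. Without replicate C of chow mesentery Lyve1 was at -4.02 (limma adjusted p = 0.0910), Reln at -3.99 and Mmrn1 at -3.43. Some lists of other cell types were also negative and others positive. The adipocyte list had a median of -3.19, with 6 of 6 genes negative, 6 at an unadjusted p under 0.05 and a lowest limma adjusted p of 0.0713. The smooth muscle and pericyte list had a median of -1.64, with 5 of 6 genes negative, and the mesothelial list one of -1.22, with 6 of 6 negative. The lymphocyte list had a median of -0.81. The fibroblast list had 6 of 7 genes positive, with a median of 1.01, and the macrophage list 6 of 8, with a median of 0.76. Medians were also positive for the exocrine pancreas (0.65), platelet and megakaryocyte (0.45) and lymph node (0.29) lists. The part of these cells was not tested. The interaction uses the same libraries as the diet and tissue comparisons above and is no separate evidence.

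Other genes of lymphatic biology were followed through 5 lists. The VEGF-C pathway supplies Flt4 with its ligands. On chow 1 of its 7 genes was higher and 1 lower in epididymal fat in limma, with a list median of 0.15: the ligand gene Vegfd was higher by 2.87 (adjusted p = 0.00692), and Kdr, which encodes VEGFR-2, lower at -1.54 (adjusted p = 0.0124). The same 2 genes were called on high fat diet, Vegfd at 3.28 and Kdr at -1.81. Vegfd was 31.9, 18.8 and 5.63 normalized counts in chow mesentery and 84.6, 148 and 131 in chow epididymal fat, a separation with no overlap, and its change was 2.22 without replicate C of chow mesentery. Fibroblasts also make Vegfd, and the part of the higher fibroblast list sums given above was not tested. Vegfc, the other ligand gene, differed by -0.10 on chow.

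Of the 8 lymphatic transcription factor genes, 2 were higher and 1 lower on chow in limma, with a list median of 1.07. Nr2f2, which encodes COUP-TFII of veins and lymphatics, was higher by 1.33, Hhex by 0.91, and Sox18, an inducer of Prox1 that blood endothelium also makes, was lower at -1.74. On high fat diet 0 were higher and 2 lower, Sox18 at -1.69 and Gata2, a valve factor, at -1.41. Of the 7 collecting vessel and valve genes reported here, Efnb2 and Ephb4, an ephrin ligand and its receptor that arteries and veins also use, were called lower on chow, at -1.53 and -1.46 (limma adjusted p = 0.0106 and 0.00103). Ephb4 was also called on high fat diet, at -1.48 (limma adjusted p = 0.00142).

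The list of 12 other lymphatic marker genes had 7 higher and 0 lower on chow in limma, with a median change of 2.36. The 4 with the largest change were Nts at 4.69, Ccl21a at 4.48, Ackr2 at 3.94 and Fxyd6 at 2.86. On high fat diet 1 of the 12 was called in limma, Pard6g at 1.28 (adjusted p = 0.0443), a call kept in 8 of 24 settings and lost in edgeR (adjusted p = 0.0642) and with the replicate block (limma adjusted p = 0.0693). Nts, which encodes the peptide neurotensin, was 7.97, 0 and 1.41 normalized counts in chow mesentery and 48.6, 72.1 and 107 on high fat diet, a separation without overlap (change 4.71, limma adjusted p = 0.116), and 176, 46.9 and 42.9 in chow epididymal fat. Of the 7 angiopoietin and adrenomedullin genes, on chow Adm, the gene of a peptide that promotes lymphatic growth, was higher by 3.88 (4.76 without replicate C of chow mesentery), and the angiopoietin receptor genes Tek and Tie1 were lower at -1.04 and -0.94. With high fat diet Adm was at 2.08, Tek at -1.06, Tie1 at -1.45 and Calcrl, the adrenomedullin receptor gene, at -1.06, all 4 called in limma. The calls of Adm, Tek and Calcrl were kept in 14, 20 and 18 of 24 settings. Those of Adm and Tek were lost in edgeR (adjusted p = 0.0742 and 0.0787), and that of Calcrl after rescaling to the pan-endothelial list (limma adjusted p = 0.291). Between the tissues edgeR called 15 of the 41 tested genes of these lists on chow, where limma called 17, and 7 on high fat diet, where limma called 10. The limma shares of all genes were 12.8% and 8.34%, and edgeR called 1984 and 1021 of 22238. Of the 41 tested genes of these 5 lists, limma called 0 for diet in mesentery, in epididymal fat and for the difference of the diet effects, with 3, 12 and 8 at an unadjusted p under 0.05. Among all 22238 genes 1367, 1543 and 1047 had an unadjusted p under 0.05. For the same comparisons edgeR called 0, 0 and 0 of the 41, and DESeq2 called 1, 1 and 0, the first Nts and the second Gata2. Counts over all genes were 1, 29 and 1 in edgeR and 150, 563 and 130 in DESeq2.

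**Figure D4:**
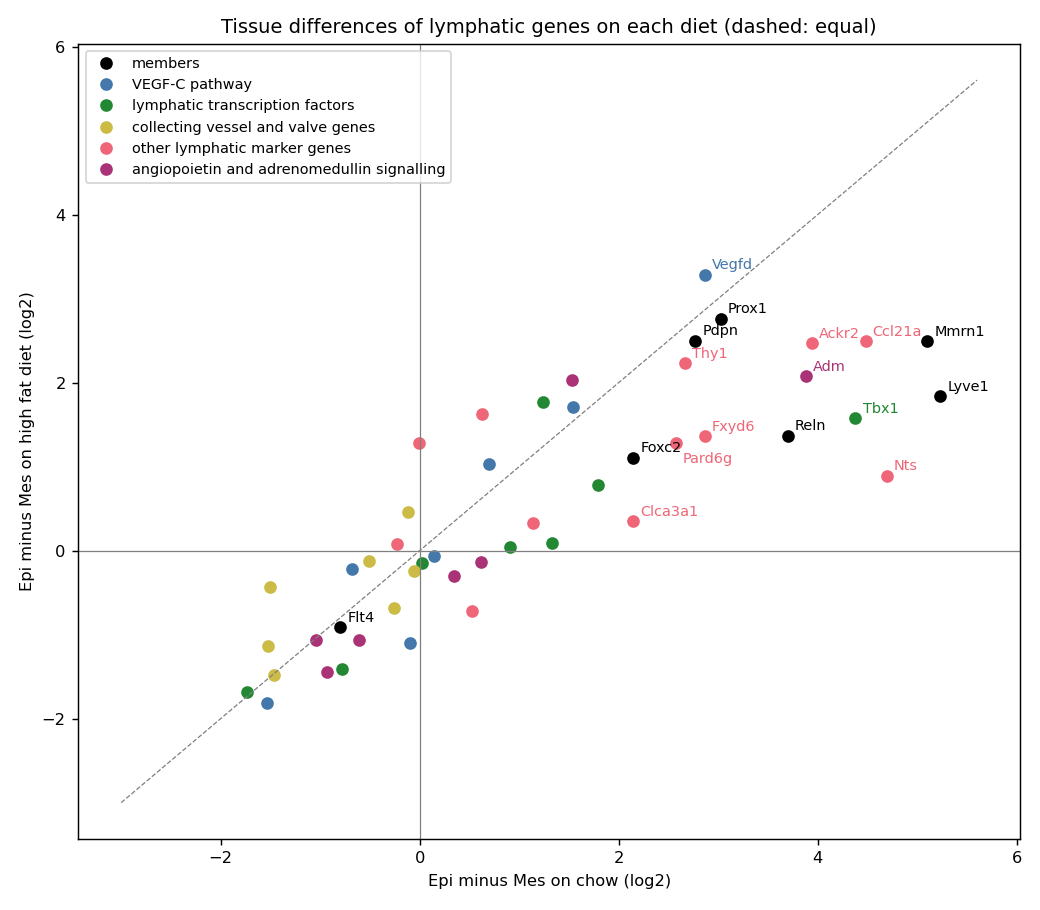
log2 difference between epididymal (Epi) and mesentery (Mes) libraries on chow (x axis) and on high fat diet (y axis) for the 7 genes (black) and the genes of 5 lymphatic lists; the dashed line marks equal differences. Lyve1, Mmrn1, Reln and Nts lie below the line, with smaller differences on high fat diet, while Vegfd lies just above it and Flt4 sits among the genes lower in epididymal fat.

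Ccl21a encodes the chemokine with which lymphatic vessels and lymph node stroma draw in dendritic cells and T cells. It was 322, 497 and 11665 normalized counts in chow mesentery, 2015, 3326 and 1853 in mesentery on high fat diet, 33188, 31428 and 20002 in chow epididymal fat and 15670, 14305 and 9877 in epididymal fat on high fat diet. Replicate C of chow mesentery was more than all 3 high fat mesentery libraries and overlapped the high fat epididymal range. In that library Madcam1 and Glycam1, which mark the high endothelial venules of lymph nodes, were at 2003 and 2006, against 31.9 and 31.4, and 80.8 and 107, in replicates A and B. Among the chow mesentery libraries Reln, Mmrn1, Lyve1, Pdpn and Prox1 were also highest there, at 279, 106, 69.0, 46.5 and 19.7, while Flt4 was lowest, at 848, and Foxc2 was at 0. The Ccl21a difference on chow was 4.48 (limma adjusted p = 0.00687, edgeR adjusted p = 0.109), and 6.10 without that library (limma adjusted p = 3.25e-07). Reads of Ccl21a can be shared with near-identical gene copies, so its values are uncertain. The part of lymph node tissue in that library's values was not tested.

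**Figure D5:**
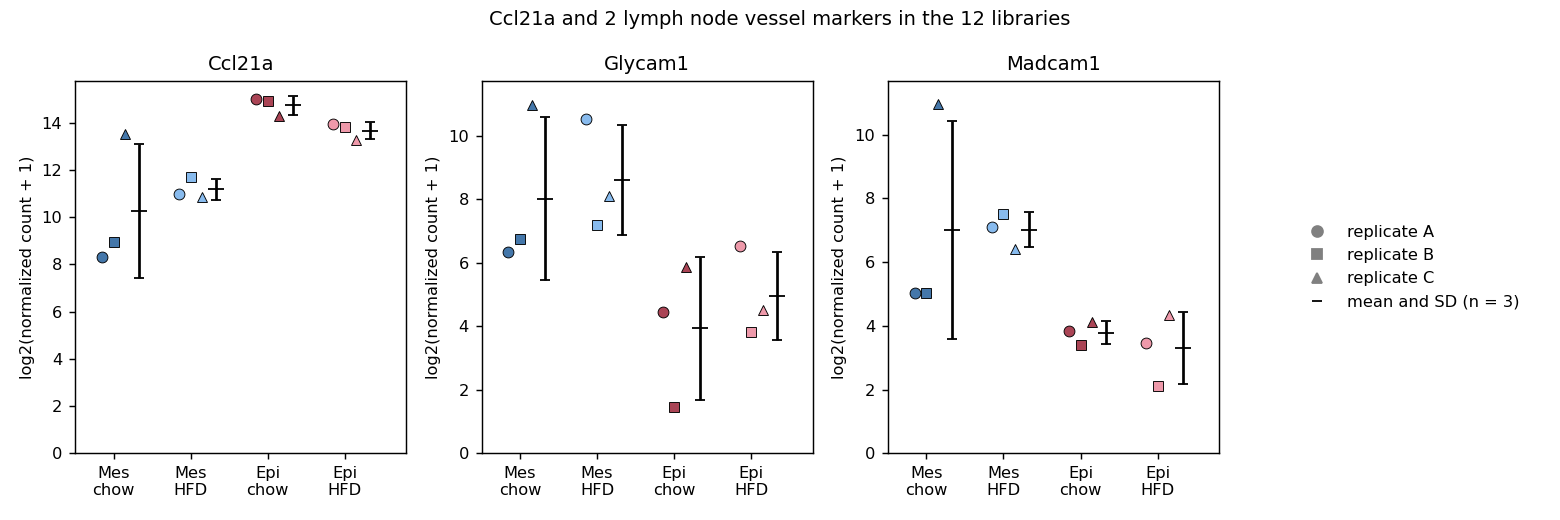
Ccl21a and the high endothelial venule markers Glycam1 and Madcam1 in each library of mesentery (Mes) and epididymal fat (Epi), as log2(normalized count + 1); symbols are libraries, black bars the mean and SD of 3. Replicate C of chow mesentery (triangle) is the highest of all 12 libraries for Glycam1 and Madcam1, at 2006 and 2003 normalized counts, and the highest of the 6 mesentery libraries for Ccl21a.

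The genes whose pattern over the 12 libraries was most like that of Prox1 were found by Pearson correlation of log2(normalized count + 1) with a minimum mean of 50 normalized counts. They were Egfr (r = 0.957), Nudt19 (0.940), Cnn1 (0.937), Avpr1a, Dancr and Snx24 (each 0.935), Prorp (0.906), Dpyd (0.899), Thy1 (0.898) and Ikbke (0.897). Ranked among all 22237 other tested genes, these 10 stood between 2 (Egfr) and 25 (Ikbke). The libraries differ in tissue, diet and depth, so r is a description. Among the 22237 other genes Mmrn1 ranked 89 (r = 0.845), Lyve1 698 (0.705), Reln 2288 (0.554), Pdpn 2306 (0.553), Foxc2 7595 (0.229) and Flt4 19244 (-0.459). This order rested on the 1 library in which Prox1 was at 0. Without it, 0 of the 10 listed genes remained among the 10 most alike, Mmrn1 ranked 29 (r = 0.939) and Lyve1 39 (0.933), and Egfr ranked 256 (0.878). The other members ranked far lower there: Reln 1135 (r = 0.771), Pdpn 1416 (0.745), Foxc2 4933 (0.464) and Flt4 20732 (-0.740). For deviations from the group means the 5 most alike of the 11535 were St7 (r = 0.966), Gprc5a (0.962), Nudt19 (0.958), Egfr (0.953) and Wdr12 (0.947). None of these 5 remained among the 5 most alike without that library, where Mmrn1 had r = 0.380 and Lyve1 r = 0.293 within groups.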

How the data were processed

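The deposited values are counts divided by DESeq2 size factors (a normalized signal per gene), which the authors made, per the submitters' processing notes, with STAR 2.7.9a, featureCounts of the Subread package and DESeq2 1.34.0 on mm39. Whether counting used strand is not given in the sources used here, so reads of Prox1 and of its antisense gene Gm28172 (at most 14.6 normalized counts) cannot be told apart. Every deposited value was a whole multiple of the worth of 1 read in its library (100% of values, within a tolerance of 1e-06), and reads were recovered from these steps for the count tests. The lowest gene total over the 12 libraries was 51 reads.

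From the deposited values, log2(value + 1) was fitted with limma 3.58.1 (R 4.3.3) over all 4 groups with a mean-variance trend, for genes with a mean of at least 10, and p-values were adjusted over all 22238 genes (Benjamini-Hochberg, threshold 0.05). Alternatives were pseudocounts of 0.5 and 5, no filter, a minimum mean of 50, no trend, edgeR 4.0.16 and DESeq2 1.42.0 on recovered reads, columns rescaled to the same total or to the pan-endothelial list, the number range as a covariate, libraries numbered 50 to 53 alone, a replicate block and each library left out. The likeness to Prox1 without certain libraries was added after seeing the data. Ratios were tested with 2-sided exact permutation tests (SciPy 1.17.1). The fits were tested on simulated data.

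The members and lists were chosen with earlier results of these data known. Named beside the members are, from each lymphatic list and comparison, all genes that passed or the 4 with the largest change; from each list of another cell type, counts and sums; and the 10 and 5 genes most like Prox1 by r. Nts in mesentery by diet, Vegfc, Cldn11 and single cell-type markers were named after their values were seen. Exon lengths came from GENCODE M21 and promoters from RefSeq, both of a build other than mm39, so no coordinates were joined to the files. A gene of the collecting vessel and valve list is not reported here and was taken out of the list counts.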

Additional observations from a re-analysis of the deposited data

How the results depend on the processing

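The limits are 3 pooled libraries per group and few reads of Prox1 and Foxc2 in mesentery, down to 0 in a library. On chow, where 5 of the 7 genes were called, 2 were called without a mean-variance trend and 2 in edgeR, and leaving out single libraries gave 2 to 6. The calls over all 22238 genes in these settings were 2102, 1984 and 1516 to 3278, against 2843. On high fat diet, where 1 was called between tissues, the count was 2 with a pseudocount of 5, 3 with a minimum mean of 50, 0 without a trend, 0 in edgeR, 4 in DESeq2, 2 with the number range as a covariate, 2 in the libraries numbered 50 to 53 and 3 after rescaling to the pan-endothelial list, and 0 to 4 when single libraries were left out. In the same order the calls over all genes were 1975, 2161 of 13076, 1046, 1021, 2931 of 16078, 2437, 2514, 4212 and 728 to 2508, against 1854 of 22238. For diet in mesentery, with 0 calls, DESeq2 called 1, the libraries numbered 50 to 53 gave 2, and leaving out single libraries gave 0 to 1. All-gene calls there were 150 of 19857, 20 and 1 to 37, against 3 of 22238. For the difference of the diet effects, DESeq2 called 1 and the libraries numbered 50 to 53 gave 1, with all-gene calls of 130 of 16078 and 11 of 22238. The cause of these shifts was not tested.

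Signs turned for diet in mesentery in Prox1 (0.34 with a pseudocount of 5, 1.33 in edgeR, 1.30 in DESeq2, 1.91 in the libraries numbered 50 to 53, and -1.45 to 1.71 over libraries left out), Reln (-0.54 in edgeR, -0.64 in DESeq2, -0.11 to 2.86 over libraries left out) and Foxc2 (-1.91 in the libraries numbered 50 to 53, -1.35 to 1.69 over libraries left out). Foxc2 between tissues on high fat diet went from -0.45 to 2.11 over libraries left out. For diet in epididymal fat, rescaling to the pan-endothelial list gave 0.049 for Prox1 and 0.17 for Lyve1. The difference of the diet effects turned in Prox1 (0.031 with a pseudocount of 0.5, 0.14 after rescaling to the pan-endothelial list, -2.16 to 1.01 over libraries left out), Pdpn (0.21 after that rescaling, -1.09 to 0.47 over libraries left out), Flt4 (0.36 and -0.34 to 0.035) and Foxc2 (0.72 in the libraries numbered 50 to 53, -2.59 to 0.45 over libraries left out).

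Rescaling the columns to the same total moved the share of calls that were higher in epididymal fat over all genes from 57.2% to 67.3% on chow and from 58.9% to 35.3% on high fat diet, and the median of all genes for diet in mesentery from -0.0023 to 0.13 and for the difference of the diet effects from 0.11 to -0.16. Calls over all genes numbered 2843 on chow and 1984 in edgeR, 1854 on high fat diet and 1021 in edgeR, and 122 for diet in epididymal fat and 29 in edgeR. Rescaling to the pan-endothelial list gave 4212 calls between tissues on high fat diet, 92.1% of them higher in epididymal fat, and 458 for diet in epididymal fat, 96.1% higher against 76.2%, and it moved the median of all genes to 0.59 and 0.58.

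With the replicate block the counts of called members were 5 on chow, 1 on high fat diet and 0 in the other comparisons, as without it. Among the other named genes Pard6g on high fat diet lost its call with the block (adjusted p = 0.0693). Libraries of the 2 tissues that share a number correlated in their deviations from the group means by 0.03, 0.53 and 0.58 on chow and -0.15, 0.15 and -0.11 on high fat diet. These values do not show a pairing on both diets, and whether a number marks the same mice is not given.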
